A study of Danio rerio with 30 samples.

Results

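The tail end of the adult zebrafish gut, segments S6 and S7, was set against the whole fish on 6 of the 30 spotted oligonucleotide arrays of the series. The 6 arrays were chosen by their titles, 3 of S6 (replicates 2, 3 and 5) and 3 of S7 (replicates 3, 4 and 5). On each array, Cy5 carried RNA of the segment, pooled from adult male fish, about a year old, whose intestine had been cut into 7 pieces of similar length. Cy3 on the same array carried RNA of whole wild-type fish mixed from 9 parts male and 1 part female. The animals had no treatment. The labels call the replicates biological and count 5 per segment, and only these 6 arrays of S6 and S7 were analysed. A log2 ratio above 0 means that a transcript took a larger place in the segment RNA than in the RNA of the whole fish, and 1 unit is a 2-fold difference. A ratio in bulk RNA cannot tell a change in the number of cells of a type from a change in RNA per cell. The other 24 arrays hold S1 to S5 and are left aside, because their whole-fish channel gave another pattern of signal.

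The intestine of a fish absorbs lipid and amino acids in its front part, takes up intact protein into lysosome-rich enterocytes further back, and ends in a short stretch with few folds that handles water and salt. Zebrafish have no stomach. Their exocrine pancreas, which makes trypsin, chymotrypsin, elastases, carboxypeptidases, amylase and lipase, is a strand of tissue that runs along the gut. A whole fish is mostly muscle, skin, skeleton and gonad, so a ratio against it compares the gut with that mixture.

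Before the results, the quality of the arrays has to be given. Between 60.8% and 84.5% of the 23232 spots were above background in Cy3, and between 14.9% and 41.9% in Cy5 on 5 arrays. S6 replicate 2 stood apart with 89.9% of its spots above background in Cy5. Spots covered a median of 80 pixels on all 6 arrays, and the ratio of a spot correlated with that of its neighbour at r = 0.192 to 0.568. On the S1 to S5 arrays the median was 120 to 460 pixels and the r between neighbours 0.021 to 0.105. Control spots for gapdh, a glycolytic enzyme printed 14 times, lay lower than whole fish on all 6 arrays, with mean log2 ratios of -0.18, -0.68 and -1.30 in S6 and -1.37, -1.74 and -0.90 in S7. The 186 control spots for actb2, cytoplasmic actin, averaged 0.25, -0.36 and -0.93 in S6 and -0.51, -0.13 and -0.29 in S7. These spots share 1 deposited sequence record, and whether they hold the same oligonucleotide was not tested. The SD among them was 0.437, 0.722 and 0.54 in S6 and 0.359, 0.273 and 0.539 in S7. On the S1 to S5 arrays that SD was 0.0782 to 0.292. Other controls were mixed. The SD among vtg3 spots was 0.626 to 0.812 on the 6 arrays and 0.046 to 0.392 on S1 to S5. For cxcr4a it was 0.384 to 0.672 and 0.144 to 0.85, and for ccnd1 0.362 to 0.741 and 0.314 to 1.91. The actin control mean was above 0 on S6 replicate 2 and below 0 on the other arrays. On that array the actin and gapdh means, 0.25 and -0.18, were smaller in size than the SDs among their spots, 0.437 and 0.5. Such an SD describes single spots and is not the error of a mean over many spots.

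The 6 arrays agreed weakly. Pearson's r of log2 ratios across 20514 tested probes, described without a test because probes are not independent replicates, averaged 0.215 over the 15 pairs of arrays, between -0.09 and 0.39. The 3 S7 arrays agreed best with each other, at a mean r of 0.358, and the 3 S6 arrays at 0.11. Without S6 replicate 2 the mean over 10 pairs was 0.309. The single dyes agreed better than their ratio, with a mean r of 0.613 for Cy5 and 0.62 for Cy3. S6 replicate 5 and the S7 arrays shared their Cy3 pattern closely (r = 0.80 to 0.91), while S6 replicates 2 and 3 correlated with every other array at 0.53 or less in Cy3. Against the Cy3 signal of the S1 to S5 arrays, which agreed among themselves at a mean r of 0.923, the 6 caudal arrays correlated at 0.154.

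**Figure D1:**
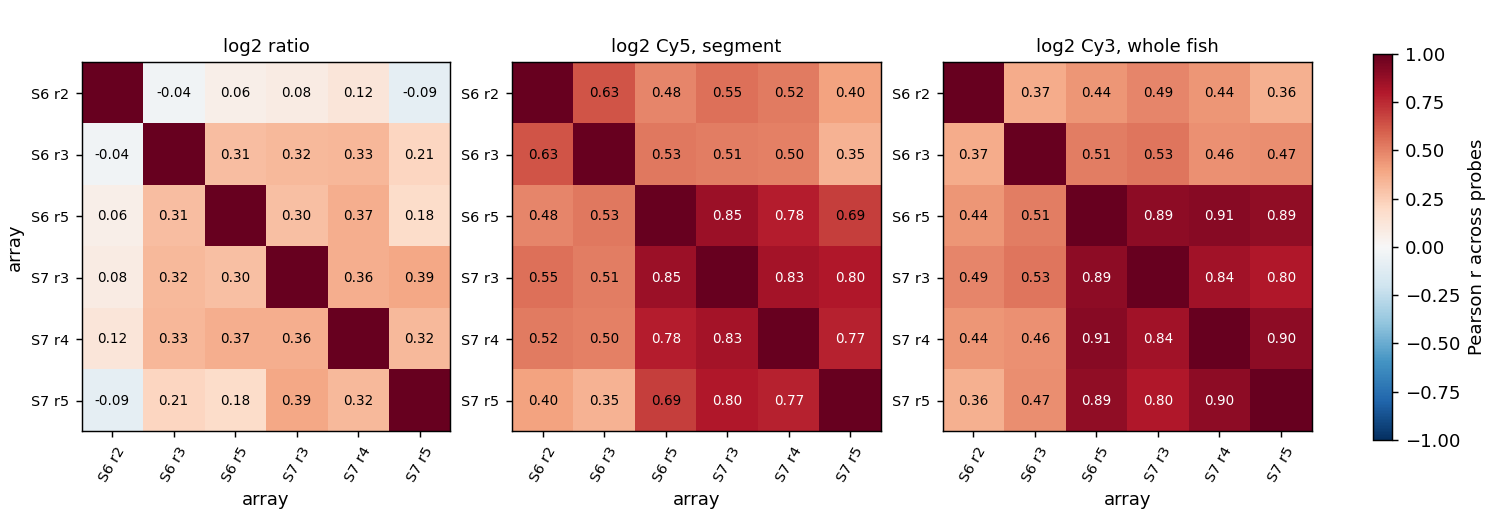
Pearson's r across 20514 tested probes between each pair of the 6 arrays (S6 replicates 2, 3 and 5, S7 replicates 3, 4 and 5) for the log2 ratio of segment over whole fish, the Cy5 signal of the segment and the Cy3 signal of the whole fish. The ratios of S6 replicate 2 correlate with the others at -0.09 to 0.12, and the Cy3 signals of S6 replicate 5 and the S7 arrays at 0.80 to 0.91.

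The first question was which transcripts were more or less abundant in the caudal gut than in the whole fish. Probes of pancreatic digestive enzymes and of the bile acid carrier fabp6 were among the highest, and probes of muscle genes among the lowest. Over both segments, 652 probes (3.18% of 20514) were higher and 474 (2.31%) lower at an adjusted p under 0.05 in limma with Benjamini-Hochberg adjustment over all tested probes. Of these, 263 (1.28% of those tested) were at least 2-fold higher and 151 (0.736%) at least 2-fold lower. Of the 1126 called probes, 543 carry a gene symbol, 309 of the higher and 234 of the lower ones. The counts depended on single arrays: 1037 probes were higher and 814 lower without S6 replicate 2, 203 and 147 without S6 replicate 3, 251 and 153 without S6 replicate 5, 346 and 284 without S7 replicate 3, 480 and 308 without S7 replicate 4, and 333 and 195 without S7 replicate 5. On the log2 values of the authors, which are not centred and have a median over probes of -0.35 against -0.04 here, 478 were higher and 3251 lower. Whole-fish RNA counts as 1 control sample, so a test of the ratio against 0 leaves out the spread of the whole-fish RNA itself.

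Digestive enzymes of the exocrine pancreas led the genes higher in S6 and S7. By the naming rule (named genes called in both segments together, with the same sign on all 6 arrays and the brighter dye above background and not saturated on all of them), 9 of the 10 highest genes encode such enzymes. Of the 17 genes of the exocrine pancreas list, 13 were matched by symbol to 16 tested probes. Of the 16 probes 12 were higher, against 3.18% of all tested probes, while 1 was lower and 3 did not pass. This list, like the others, was chosen with earlier results of these data known, so its share is not independent evidence. The median of the 16 log2 ratios was 1.42, against -0.04 for all tested probes. The median of the list on single arrays was 0.44, 1.01 and 1.82 in S6 and 1.91, 2.31 and 1.16 in S7, above 0 on every array.

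The highest was ctrb.1, a chymotrypsinogen. The list held it under its deposited name, ctrb1, which the updated symbol did not match, so the counts of the list leave it out. Its log2 ratios were 3.15, 1.76 and 2.81 in S6 and 2.15, 3.00 and 1.90 in S7. The mean was 2.46 ± 0.24 (moderated SE of limma, n = 6), or 5.51-fold above whole fish (limma adjusted p = 2.694e-09). Its mean log2 signal was 14.03 in Cy5 and 11.56 in Cy3. Here and below, ± gives this moderated SE, which draws on the spread of all probes and is not the spread between the 6 arrays. All arrays of both segments lay above 1.7, and the segments overlapped.

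Trypsins were higher as well. For prss59.1, a trypsin family protease, the log2 ratios were 2.85, 1.66 and 2.67 in S6 and 2.24, 2.83 and 1.47 in S7, a mean of 2.29 ± 0.24 (adjusted p = 1.775e-08). The trypsin prss1 gave 0.78, 1.39 and 1.84 in S6 and 2.52, 3.26 and 1.96 in S7, 3.88-fold above whole fish on average (adjusted p = 4.811e-07). For prss1 the 3 S7 arrays lay above the 3 S6 arrays, but the difference of S7 over S6 did not pass in the test across all probes, in which no gene with a name did. The prss1 probe is deposited as try. The paper already lists a gene written trp as high in S6 and S7, and gives RT-PCR for one written typ. Prss1 was counted here as that gene, whose identity was not tested, so its direction is not independent evidence.

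Elastases and carboxypeptidases followed. The elastase family members ela2l, ela2 and ela3l averaged 2.26, 2.08 and 1.88 on the log2 scale. For ela2 the 6 values lay close together, at 1.40, 2.37 and 2.32 in S6 and 2.38, 2.40 and 1.59 in S7. For ela3l the lowest value, 0.23, was on S7 replicate 5 and the highest, 2.91, on S6 replicate 2. The carboxypeptidase A family gene cpa5 gave 1.51, 0.86 and 3.50 in S6 and 2.48, 2.69 and 1.34 in S7. Its relative cpa1 averaged 1.49 (adjusted p = 0.0001238).

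Genes with more than 1 probe allow a check within the array. Both probes of cpb1, carboxypeptidase B, were higher, at 2.01 ± 0.25 and 2.06 ± 0.28 (moderated SE, n = 6, limma adjusted p = 6.311e-07 and 4.031e-06). The 2 probes had SDs of 0.79 and 1.32 over the 6 arrays. They also followed each other from array to array: S6 replicate 2 was the lowest for both, at 0.52 and -0.55, and S7 replicate 4 the highest, at 2.84 and 3.18. Both probes of cela1.3, an elastase, were higher too, at 1.34 and 1.28 (adjusted p = 0.001198 and 0.0003928). These are deposited as wu:fb62f03 and zgc:92745, so this pair rests on synonyms. By contrast, the 2 probes of cpa4 parted, at 1.49 (adjusted p = 0.0003342) and 0.16 (adjusted p = 0.7638).

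Lipase and amylase completed the group. The bile-salt activated lipase gene cel.2 gave 1.97, 0.99 and 2.94 in S6 and 1.85, 3.09 and 2.14 in S7, 4.48-fold above whole fish on average (adjusted p = 1.592e-07). Pancreatic amylase, amy2a, averaged 0.97 ± 0.25 (adjusted p = 0.01652), with -0.04 on S7 replicate 5, and its call was lost without S6 replicate 5 or S7 replicate 4 (adjusted p = 0.17 and 0.156). The chymotrypsin-like protease ctrl averaged 1.35 (adjusted p = 0.001237) and was also below 0 on S7 replicate 5, at -0.31. S7 replicate 5 was thus the lowest of the 6 for ctrl, amy2a, ela3l and fabp6.

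The members that did not rise were cel.1 at 0.08, the other cpa4 probe, and pdia2, a pancreatic protein disulphide isomerase, at -0.31 (adjusted p = 0.5479). Ptf1a, the transcription factor that specifies exocrine cells, was called lower at -0.93 (adjusted p = 0.01738). Its Cy5 signal was not well above background on any of the 6 arrays, so no fold is given, and the call was lost without S6 replicate 3, S6 replicate 5 or S7 replicate 5 (adjusted p = 0.0655 to 0.176). The 12 higher probes were above background in Cy5 on 5 or 6 arrays.

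Several of these enzymes belong to families of near-identical sequence, and which relatives an oligonucleotide binds was not tested. The probes of ctrb.1 and prss59.1 are printed on adjacent spots. The other 22 tested spots beside the 12 higher probes had a median log2 ratio of -0.18 and a range from -1.15 to 0.99. Of them, 2 were called higher (against 3.18% of all tested probes) and 1 lower (against 2.31%). The part of pancreatic tissue that may lie on the gut wall in these pieces was not tested.

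**Figure D2:**
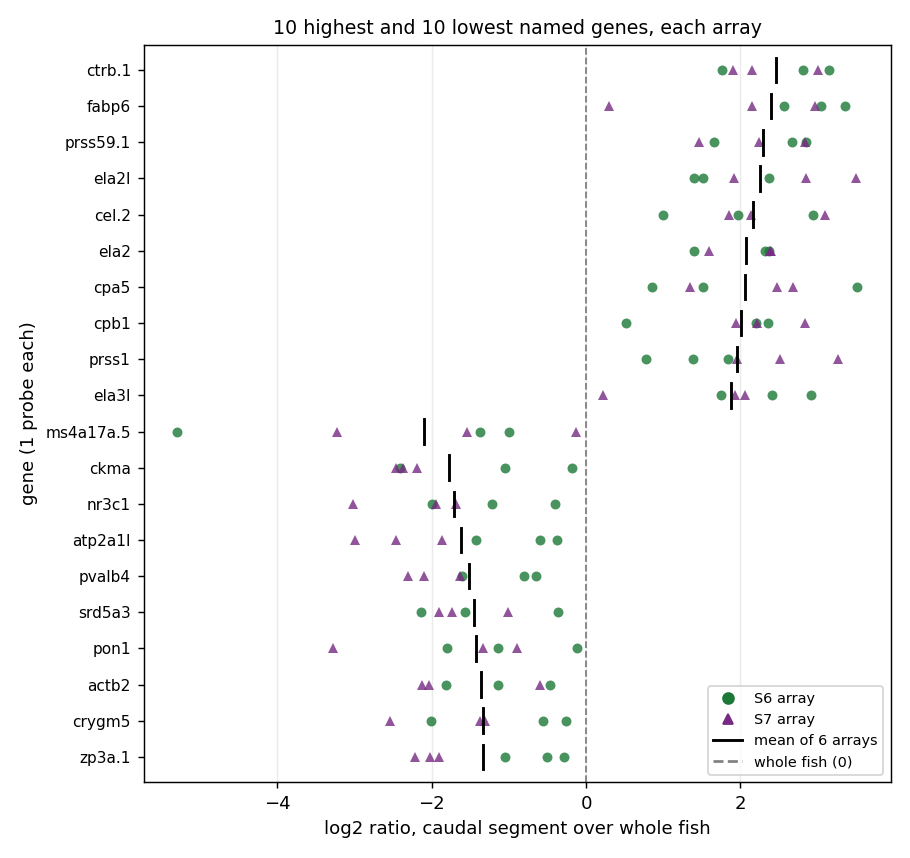
Log2 ratio of caudal segment over whole fish (x axis) on each of the 6 arrays for the 10 highest and 10 lowest named genes, with circles for S6, triangles for S7 and a bar at the mean. All points of the 10 highest genes lie above 0, and all points of the 10 lowest genes lie below 0.

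Among the 10 highest, fabp6 was the one gene that is no pancreatic enzyme. It encodes the ileal bile acid binding protein, which is known for the distal small intestine of mammals. Its log2 ratios were 2.57, 3.35 and 3.04 in S6 and 2.96, 2.15 and 0.30 in S7. On average fabp6 was 5.27-fold above whole fish (2.40 ± 0.26, moderated SE, n = 6, limma adjusted p = 3.964e-08). Its SD over the 6 arrays was 1.11, and its log2 signal was 11.37 in Cy5 and 8.98 in Cy3. The S6 mean was 2.99 (adjusted p = 6.704e-06) and the S7 mean 1.81 (adjusted p = 0.003894). The ranges of the segments overlapped, and S7 replicate 5 alone was near the level of the whole fish.

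In the enterocyte and lipid absorption list fabp6 was the only member called higher. Of 20 probes for 15 genes, 1 was higher (against 3.18% of all tested probes), 2 were lower (against 2.31%) and 17 did not pass, and the median was -0.08 against -0.04 for all tested probes. Apoa1a, the main protein of high-density lipoprotein, was lower at -1.06 ± 0.23 (adjusted p = 0.004297), with values of -0.43, -1.61 and -0.29 in S6 and -1.14, -1.60 and -1.28 in S7, and did not pass without S6 replicate 3 (adjusted p = 0.0645). 1 of 3 probes of apobb.1, the apolipoprotein B of chylomicrons, was lower at -1.18 (adjusted p = 0.002001), while the others stood at -0.67 and 0.77 and did not pass. The retinol carrier rbp2a, at -0.72 (adjusted p = 0.05592), and apoa4a, at -0.68 (adjusted p = 0.08427), did not pass. Cy5 was above background on 1 array each for apoa1a and the lower apobb.1 probe, which limits these sizes.

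The genes that usually define enterocytes had ratios near 0 against whole fish, which for a dim probe does not show equal abundance. Fabp2, the intestinal fatty acid binding protein, averaged -0.26 (adjusted p = 0.6146), with 0.55, -0.32 and 0.10 in S6 and -0.80, -1.25 and 0.17 in S7. The 2 probes of vil1, the villin of the brush border, averaged 0.02 and -0.07 and neither passed. Cy5 was above background on 1 array for the first of them and on 6 for the other. The peptide transporter slc15a1b averaged 0.29 (adjusted p = 0.5628). Of the intestinal transcription factors, 8 of 9 probes did not pass, among them cdx4, hnf4a, gata4, gata5 and gata6. The 1 lower probe (against 2.31% of all tested probes), of foxa2, averaged -0.79 (adjusted p = 0.04891). Its call was lost without S6 replicate 3, S6 replicate 5, S7 replicate 4 or S7 replicate 5 (adjusted p = 0.12 to 0.296). It was also lost with no background correction, an offset of 16, median centring, loess within printing blocks, scaling between arrays or no filter on dim probes (adjusted p = 0.0502 to 0.101). For goblet cells, 4 probes for 3 genes were measured and none passed, with agr2 at -0.34 and 0.16. Cy5 was above background on 3 and 1 arrays for these agr2 probes, and on 3 each for hnf4a and gata4. None of these probes was called higher than whole fish on the 6 arrays. The paper uses fabp2 and villin as markers of the front segments. It reports villin at a negligible level in S6 and S7 by RT-PCR, and fabp2 mRNA undetectable in the hindmost gut by in situ hybridization.

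Lysosomal enzymes and the machinery of protein endocytosis, which mark the enterocytes that digest protein inside the cell, had few calls. Of 18 probes for 12 genes, 3 were higher (against 3.18% of all tested probes), 1 was lower (against 2.31%) and 14 did not pass, with a list median of 0.09 against -0.04 for all tested probes. Ctsl.1, a cathepsin L protease, was 2.60-fold above whole fish (1.38 ± 0.26, adjusted p = 0.000734). Its log2 ratios were 0.70, 0.64 and 2.12 in S6 and 2.46, 1.96 and 0.40 in S7, above 0 on all arrays with wide overlap. The other cathepsin L gene, ctsla, averaged -0.52 (adjusted p = 0.2346), below 0 on 5 of 6 arrays, and of the 16 alternatives passed as lower only on the authors' log2 values (-0.917, adjusted p = 0.0129). Dab2, the adaptor of the endocytic receptors for protein, averaged 0.91 (adjusted p = 0.03819), below 0 on S6 replicate 2 and between 0.74 and 2.25 on the others. Its call was lost without S6 replicate 3, S6 replicate 5 or S7 replicate 5 (adjusted p = 0.24 to 0.316), and with no background correction, an offset of 16, loess within printing blocks, scaling between arrays, the authors' log2 values or no filter on dim probes (adjusted p = 0.067 to 0.12).

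1 of 2 probes of ctsz, cathepsin Z, was higher at 0.86 (adjusted p = 0.02268) and the other stood at -0.40. The legumain gene lgmn, at 0.67 (adjusted p = 0.077), and ctsd, cathepsin D, at 0.68 (adjusted p = 0.09213), did not pass. Lamp2, a lysosomal membrane protein, had 4 probes, all below 0, of which 1 was lower at -0.88 (adjusted p = 0.02124). The call of ctsz was lost without S6 replicate 3, S6 replicate 5, S7 replicate 3 or S7 replicate 5 (adjusted p = 0.0737 to 0.156) and that of lamp2 without S6 replicate 3, S6 replicate 5, S7 replicate 4 or S7 replicate 5 (adjusted p = 0.056 to 0.171). That of ctsl.1 was kept under all 16 alternatives of the processing.

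Water and salt transport was measured by 14 probes for 9 genes. One was higher (against 3.18% of all tested probes), 1 lower (against 2.31%) and 12 did not pass. The study had picked aqp3a, an aquaporin that also passes glycerol, as a marker of the hind gut. One of its probes was higher, at 0.63, 0.48 and 0.94 in S6 and 1.35, 0.85 and 1.27 in S7, a mean of 0.92 ± 0.23 (adjusted p = 0.01068), and was above background in both dyes on all arrays. It did not pass without S6 replicate 5 or S7 replicate 3 (adjusted p = 0.0759 and 0.0661). The other aqp3a probe gave -0.30, -0.63 and -0.89 in S6 and -0.08, -0.46 and -0.02 in S7 (adjusted p = 0.3551), and was above background in Cy5 on 1 array. On every array the higher probe lay above the other. Aqp7, another glycerol channel, was lower at -0.87 (adjusted p = 0.02293), a call lost without S6 replicate 3, S6 replicate 5, S7 replicate 4 or S7 replicate 5 (adjusted p = 0.068 to 0.168). Aqp1a.1 and both probes of aqp8a.1 did not pass, nor did the sodium pump subunits atp1a1a.4 and atp1b1a, the carbonic anhydrase ca2 and the chloride cotransporter slc12a2.

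Cfl1, cofilin, an actin-severing protein, was another gene the study had picked for the hind gut. Of 3 probes under this symbol, 1 was higher at 0.83 (limma adjusted p = 0.02863), above 0 on all 6 arrays. The others averaged 0.13 and -0.46 and did not pass. The one at 0.13 is deposited as cfl2l, and its identity was not tested. The call was lost without S6 replicate 3, S6 replicate 5, S7 replicate 3 or S7 replicate 5 (adjusted p = 0.0888 to 0.163). G3bp1, a stress granule protein, was 2.06-fold above whole fish (1.04 ± 0.25, adjusted p = 0.0078), between 0.17 and 1.95 on all arrays, and did not pass without S6 replicate 3, S6 replicate 5 or S7 replicate 5 (adjusted p = 0.0503 to 0.108). Gnb3b, a G protein subunit, at 0.53, ppp2r2d, a phosphatase subunit, at -0.07, and the cathepsin gene ctsc, at 0.03 and 0.70 with 2 probes, did not pass. Lipf, a gastric type lipase, averaged 0.02. Aqp10a, aqp10b, cfl1l and apoa1b had no tested probe. The paper writes gsbp1, and g3bp1, whose probe is deposited as zgc:56034, was counted here as that gene. This identity was not tested. The study chose its genes on arrays that include these 6, so their direction is not independent evidence. For cfl1 and aqp3 the paper contrasts hind with front segments, whereas the ratios here are against whole fish. It also gives RT-PCR along the gut for several genes, among them cfl1, ctsl1, fabp2, villin and the gene written typ, which was not re-examined here.

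**Figure D3:**
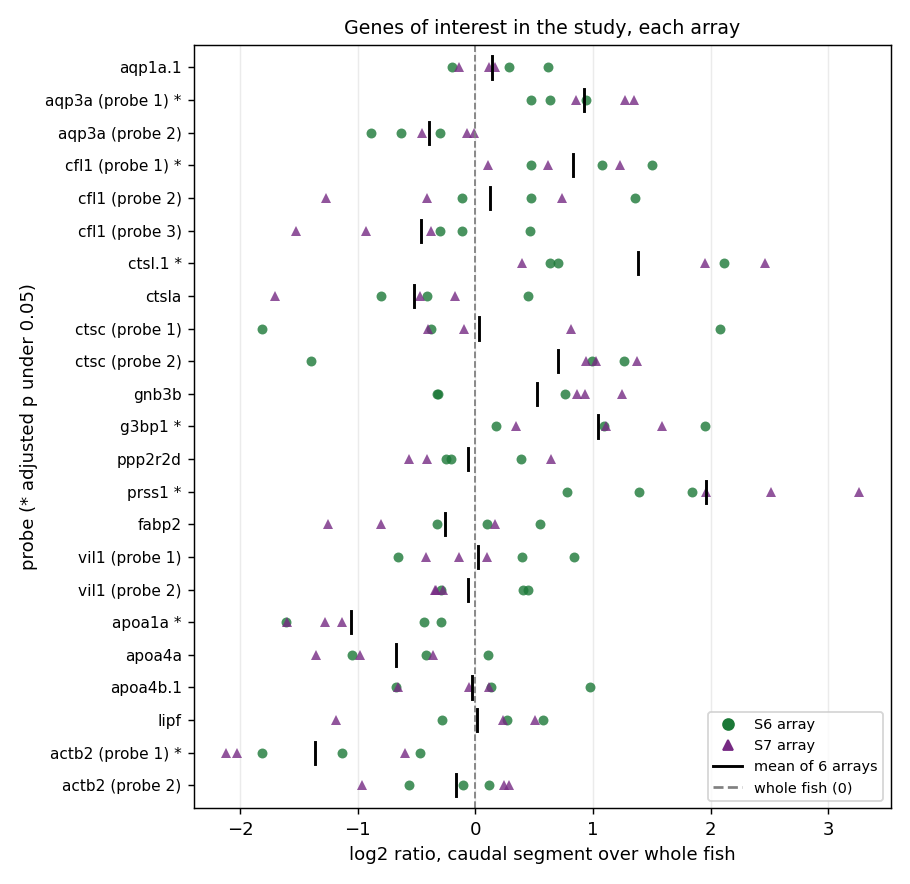
Log2 ratio of caudal segment over whole fish (x axis) on each of the 6 arrays for 23 probes of genes that the study singles out, with circles for S6, triangles for S7, a bar at the mean and an asterisk where the adjusted p is under 0.05. The probes of aqp3a, cfl1 and actb2 part from each other, with aqp3a at 0.92 and -0.40.

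Genes of skeletal muscle, the bulk of a whole fish, had the most lower probes of the 25 lists. The lists were chosen with earlier results of these data known, so this rank is not independent evidence. Of 25 probes for 20 genes, 6 were lower (against 2.31% of all tested probes), 1 was higher (against 3.18%) and 18 did not pass. The median was -0.33, against -0.04 for all tested probes. By median, connective tissue and vessels at -0.36 and yolk and ovary at -0.34 were lower still. Ckmb, a muscle creatine kinase, was even across the arrays, with -1.65, -2.06 and -2.18 in S6 and -1.52, -2.12 and -2.13 in S7 (mean -1.94 ± 0.23, adjusted p = 2.308e-07). Mylz3, a myosin light chain, averaged -1.82 (adjusted p = 8.294e-06), with the lowest value, -2.95, on S7 replicate 3. Cy5 was above background on 1 array for ckmb and on 2 for mylz3, so the dimmer dye limits these sizes.

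One probe of ckma, the other muscle creatine kinase, gave -0.19, -1.04 and -2.41 in S6 and -2.46, -2.37 and -2.19 in S7 (mean -1.78 ± 0.25, adjusted p = 7.574e-06). The other ckma probe, above background in both dyes on all arrays, averaged 0.06 (adjusted p = 0.9274). The remaining 2 probes of mylz3 stood at 0.51 and -0.07 and did not pass. Pvalb2, a parvalbumin that buffers calcium in fast muscle, averaged -1.19, and myl1 and tnnt3b, of the contractile filament, -0.89 and -0.80. The call of myl1 was lost without S6 replicate 3, S6 replicate 5, S7 replicate 4 or S7 replicate 5 (adjusted p = 0.0626 to 0.104), and that of tnnt3b without any array other than S6 replicate 2 (adjusted p = 0.0561 to 0.146). Atp2a1, the calcium pump of the sarcoplasmic reticulum, was the member called the other way, at 0.97 (adjusted p = 0.008498), with its other probe at 0.43, and did not pass without S6 replicate 3 or S6 replicate 5 (adjusted p = 0.0597 and 0.0754).

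Muscle genes also stood among the 10 lowest named genes. Beside ckma these were atp2a1l, a relative of the calcium pump, at -1.62 ± 0.24 (adjusted p = 1.583e-05), and pvalb4, at -1.52 ± 0.23 (adjusted p = 3.724e-05). The other atp2a1l probe averaged -0.10 (adjusted p = 0.8772). Atp2a1l gave -0.38, -0.60 and -1.42 in S6 and -2.46, -2.99 and -1.87 in S7, without overlap between the segments. Pvalb4 gave -0.65, -0.80 and -1.61 in S6 and -1.63, -2.31 and -2.10 in S7. Neither difference of S7 over S6 passed in the test across all probes. Cy5 was above background on 2 arrays for atp2a1l and on 1 for pvalb4.

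The remaining lowest genes came from several tissues. Crygm5, a lens crystallin, averaged -1.34 (adjusted p = 0.0006857) and was above background in both dyes on all arrays. A probe deposited as pou3, which the gene records list as an older name of the egg coat protein zp3a.1, averaged -1.33 (adjusted p = 0.0002241), with -0.28, -0.51 and -1.04 in S6 and -2.02, -2.22 and -1.90 in S7. Nr3c1, the glucocorticoid receptor, averaged -1.71, srd5a3, a reductase of the steroid reductase family, -1.45, and pon1, a paraoxonase, -1.43. Cy5 was above background on 3 arrays for nr3c1, on 2 for srd5a3 and on 1 each for the pou3 probe and pon1. The old name may have meant another gene, and the identity of the probe was not tested.

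Actb2 gave -0.47, -1.82 and -1.14 in S6 and -0.60, -2.03 and -2.12 in S7 on one probe (mean -1.36, adjusted p = 0.0004699) and -0.17 on the other tested probe, which did not pass. The lower actb2 probe was above background in Cy5 on 1 array. The lowest by the rule, which leaves out saturated probes, was ms4a17a.5, a membrane protein with 4 spans in its family, at -5.29, -1.37 and -0.99 in S6 and -3.23, -1.55 and -0.13 in S7. Its Cy5 signal was not well above background on any array, so only the mean over the 6 arrays is bounded, at 1.55-fold or more below whole fish (adjusted p = 0.0001618). That bound does not hold for each array or segment. S6 alone passed, at a mean of -2.55 (limma adjusted p = 0.006852), and S7 alone did not, at -1.63 (adjusted p = 0.06688). With loess within printing blocks it did not pass (adjusted p = 0.058). One array, S6 replicate 2, held the extreme value.

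**Figure D4:**
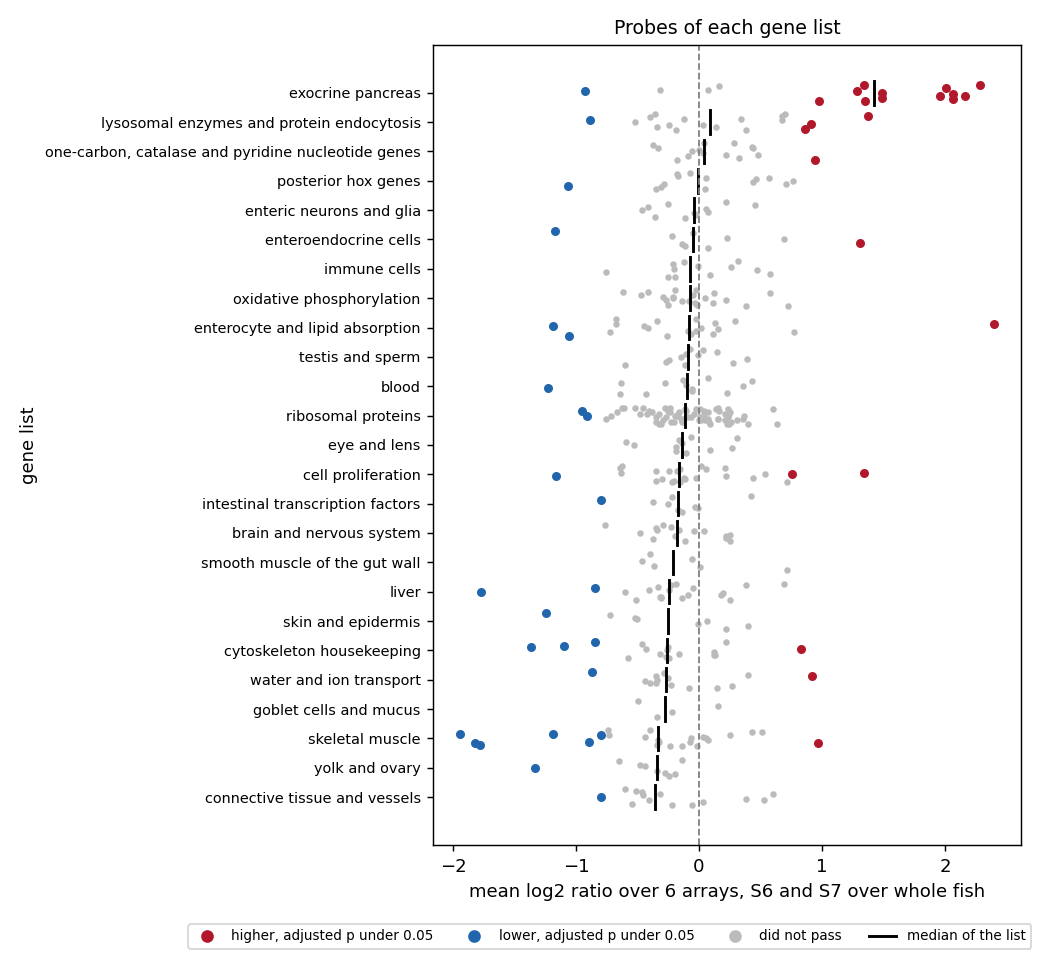
Mean log2 ratio over the 6 arrays of S6 and S7 over whole fish (x axis) for each tested probe of the 25 gene lists (rows), in red or blue where it was called higher or lower, with a bar at the median of the list. The exocrine pancreas list has its median at 1.42, and the medians of the other lists lie between -0.36 and 0.09.

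Other tissues of the whole fish gave few calls each. Of all tested probes, 2.31% were lower and 3.18% higher. Of the liver list, 2 of 20 probes were lower, tfa, transferrin, at -1.77 (adjusted p = 3.198e-06) and ambp at -0.85, and the fibrinogen genes fga, fgb and fgg and the liver fatty acid binding protein fabp10a did not pass. The blood list had hbba1, a beta globin, lower at -1.23 (adjusted p = 0.0008452) and 12 of 13 probes that did not pass. Krt5, a keratin of the skin, was lower at -1.25 (adjusted p = 0.0006764), with 7 of 8 skin probes that did not pass. Col1a2, a collagen chain, was lower at -0.79 (adjusted p = 0.04726). Cy5 was above background on 1 array each for tfa, ambp and col1a2 and on 2 for hbba1, so the dimmer dye limits these sizes. In S6 alone tfa averaged -0.90 and did not pass (limma adjusted p = 0.2929). The calls of ambp and col1a2 were lost without any array other than S6 replicate 2 (adjusted p = 0.0689 to 0.274 and 0.077 to 0.359). In the yolk and ovary list, all 9 probes were below 0 and 1 passed, the probe deposited as pou3, whose place in the list rests on that synonym. None of 12 testis probes, 16 brain probes, 11 eye probes, 12 immune probes, 11 probes of enteric neurons and glia and 22 probes of oxidative phosphorylation passed.

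Of 17 probes for 11 genes of the cytoskeleton housekeeping list, 3 were lower (against 2.31% of all tested probes) and 1, of cfl1, was higher (against 3.18%). The list median was -0.26, and it lay between -0.43 and -0.03 on single arrays. Lower were the actb2 probe given above, 1 of 2 probes of gapdh at -1.10 (adjusted p = 0.002148), with the other at -0.27 (adjusted p = 0.5994), and actc1b, a muscle actin, at -0.85 (adjusted p = 0.0241). The call of actc1b was lost without S6 replicate 5, S7 replicate 3, S7 replicate 4 or S7 replicate 5 (adjusted p = 0.054 to 0.165). The same 3 probes were lower in S7 alone. Cy5 was above background on 1 array for the lower actb2 probe and on 2 for the lower gapdh probe, which limits these sizes.

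Structural and cell cycle genes gave few calls, beside shares of 3.18% higher and 2.31% lower among all tested probes. None of 6 smooth muscle probes passed over both segments, and acta2, smooth muscle actin, was the highest of them at 0.71 (adjusted p = 0.05407). Of 73 probes for ribosomal proteins, 2 were lower, rpl19 at -0.95 and rps3 at -0.91. Without S6 replicate 3, S6 replicate 5 or S7 replicate 5 neither passed (adjusted p = 0.0592 to 0.154), nor did rps3 without S7 replicate 4 (adjusted p = 0.219). Of 25 proliferation probes, orc6, a subunit of the origin recognition complex, was higher at 1.34 (adjusted p = 0.0008473), mcm3, a subunit of the replicative helicase, at 0.76 (adjusted p = 0.04003), and 1 of 3 probes of the ribonucleotide reductase subunit rrm2 was lower at -1.16. Mcm3 was above background in Cy3 on 2 arrays and in Cy5 on 1, and its call was lost without any array other than S6 replicate 2 (adjusted p = 0.0747 to 0.186). That of rrm2 was lost without S6 replicate 3 or S6 replicate 5 (adjusted p = 0.0906 and 0.132). Of 14 posterior hox probes, hoxc10a was lower at -1.06 (adjusted p = 0.002903), and hoxc13a, at 0.76, and hoxd9a, at 0.71, did not pass (adjusted p = 0.06259 and 0.07036). Cy5 was above background on 1 array each for hoxc10a and the lower rrm2 probe, which limits these sizes. Of the one-carbon, catalase and pyridine nucleotide genes, naprt, which makes NAD from nicotinic acid, was higher at 0.94 (adjusted p = 0.01046) and 14 of 15 probes did not pass. Without S6 replicate 3 or S7 replicate 3 it did not pass (adjusted p = 0.0842 and 0.0883).

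Enteroendocrine probes gave a contradiction under 1 symbol. The higher probe was deposited as zgc:103616 and the lower as gcga, so the pair rests on a synonym. Whether both detect 1 gene was not tested. One probe of gcga, proglucagon, was higher at 0.73, 0.74 and 1.33 in S6 and 1.73, 1.42 and 1.92 in S7 (mean 1.31, adjusted p = 0.000259). The other gcga probe was lower at -1.35, -1.44 and -0.74 in S6 and -0.27, -0.95 and -2.26 in S7 (mean -1.17, adjusted p = 0.002629). On every array one lay above 0 and the other below it. Mafbb, a transcription factor of the Maf family, likewise had a probe at 0.90 and a probe at -0.82, called in opposite directions. These were deposited as krml2 and krml2.2, so this pair rests on synonyms too. The lower call was lost without any array other than S6 replicate 2 (adjusted p = 0.09 to 0.343), and the higher one without S6 replicate 3, S6 replicate 5, S7 replicate 3 or S7 replicate 5 (adjusted p = 0.0514 to 0.0986).

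This led to the question of how far 2 probes of a gene agreed in general. In genes with at least 2 tested probes, matched by updated symbol, only the first 2 by probe number were compared. Their mean log2 ratios correlated at r = 0.0179 across 1562 genes, and at 0.00912 to 0.058 on single arrays. They had the same sign for 804 genes (51.5%), against 50.6% if the 2 probes were unrelated. The 2 probes compared thus agreed in sign about as often as unrelated probes would. For the same genes on the 24 arrays of S1 to S5 the r was 0.411, between 0.3 and 0.475 on single arrays. At least 1 of these 2 probes was called for 166 genes, of which 81 (48.8%) had the same sign on both. A call on a further probe of a gene is not counted here. Both were called for 5 genes: cpb1 and cela1.3 higher on both, zgc:111868 lower on both, and gcga and mafbb in opposite directions. Where both probes were above background in both dyes on all 6 arrays, which held for only 11 genes, r was 0.238 and 8 had the same sign. Without the genes of the exocrine pancreas list, r was -0.00832 across 1559 genes. A called probe whose gene has no other tested probe therefore stands on 1 spot per array. In Cy3, the median actb2 control spot outshone 49% to 95.9% of spots on the caudal arrays. On the S1 to S5 arrays it outshone 98.4% to 99.4%. For control spots of vtg3, a yolk protein, these shares were 29.3% to 72.8% and 96.2% to 97.4%. The signal of the 6 caudal arrays thus differed from that of the S1 to S5 arrays. Whether the layout of the spots or the hybridization lay behind it could not be settled from the files. A gene name given to a spot here rests on the deposited layout, whose fit to these 6 arrays was not tested.

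**Figure D5:**
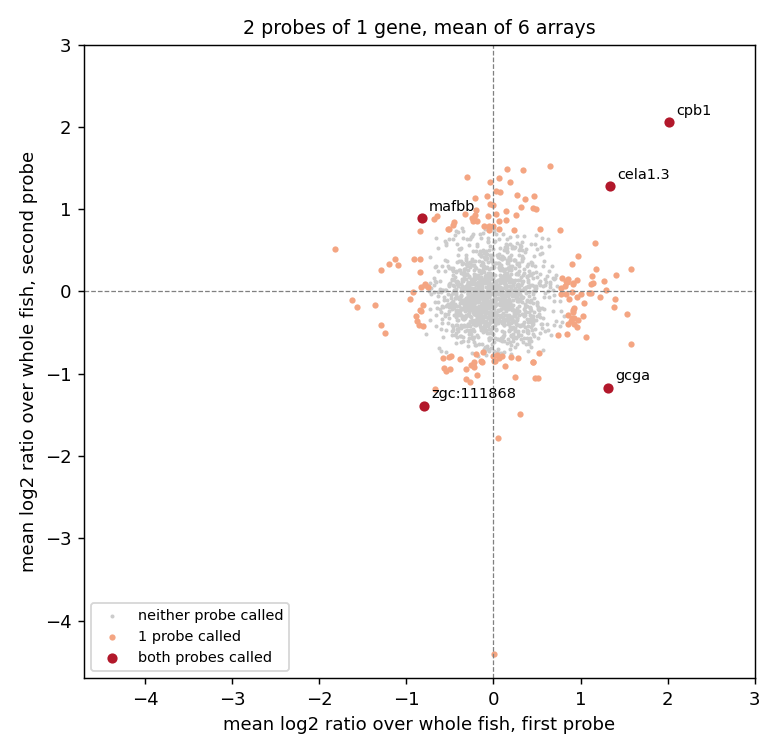
Mean log2 ratio of S6 and S7 over whole fish of the first (x axis) and second probe (y axis), by probe number, of 1562 genes. Colour gives how many of the 2 were called. The cloud shows no slope (r = 0.0179), and of the 5 genes with both probes called, cpb1 and cela1.3 lie at the upper right.

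The lowest probes did not belong to the genes named by the rule. A probe of ppiaa, cyclophilin A, chosen after its values were seen, had the lowest mean of all tested probes. It gave -3.24, -3.66 and -6.26 in S6 and -4.68, -5.86 and -2.72 in S7 (mean -4.40, adjusted p = 2.741e-12). It was saturated on 1 array, and its Cy5 signal was above background on 5, so no fold is given. The other ppiaa probe averaged 0.00 (adjusted p = 0.9969). Of the probes at -2 or below, 20 have no gene in the annotation and 3 have one. Of the 20, 12 lie at 2 neighbouring places that recur in every 8th printing block. All 12 were called lower, between -3.29 and -2.59. At another place that recurs in this way, 5 of 6 spots were called higher, and the 6 ranged from -0.36 to 1.95. What is printed at these places is not given in the sources used here.

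Each segment was also tested alone against whole fish, with both sharing the whole-fish RNA and 1 estimate of the spread. In S7, 299 probes (1.46%) were higher and 194 (0.946%) lower, and in S6, 25 (0.122%) were higher and 26 (0.127%) lower. Of the exocrine pancreas list, 10 of 16 probes were higher in S7, with a list median of 1.79, and 4 in S6, with a median of 1.21. Of the skeletal muscle list, 6 of 25 were lower in S7 and 1 in S6. Aqp3a passed on its higher probe in S7 (1.16, adjusted p = 0.04012) and averaged 0.68 in S6 (adjusted p = 0.4226). Acta2 passed in S7 (1.24, adjusted p = 0.02647).

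A direct test of S7 against S6 called far less. No probe (0%) was higher and 3 (0.0146%) were lower in S7 at an adjusted p under 0.05 in limma, while 1314 (6.41%) had an unadjusted p under 0.05. None of the 3 has a gene in the annotation. Differences in the number of calls between S7 and S6 against whole fish are thus not matched by tested differences between the segments, and the S6 arrays agreed less among themselves than the S7 arrays.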

How the data were processed

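Per spot and dye, the authors deposited the scanner's intensity as mean, median and local background. The deposited percent, ratio and log2 columns were made by the authors from these intensities; their ratio is the mean ratio times a constant per array (1.02 to 1.35), and the deposited series table holds the same log2 values. The work used limma 3.58.1 under R 4.3.3, with tables read by version 1.17.8 of data.table and figures drawn with matplotlib. The background was subtracted by normexp (offset 50) and loess was run on the ratios of an array. Loess ignored 245 control spots, which belong to 1 of 5 sequence records with 10 or more spots each. Probes above background (median over the background median plus 2 SD) in either dye on at least 3 of 6 arrays were tested. The moderated test of the group means of S6 and S7 was adjusted by Benjamini-Hochberg over 20514 probes, with calls at 0.05. It was tested on simulated data. No array had its dyes swapped, and dye bias of a probe is therefore part of its ratio.

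Of 23232 spots, 3568 had a current symbol, 8022 one updated through a synonym in the gene records of GRCz12tu, 134 the symbol as deposited and 11508 none. A dim signal was bounded by the lowest signal above background on the array. Array number limits the precision. The named genes are the 10 highest and 10 lowest (spots saturated on no array), genes of interest in the paper, genes whose probes were all called alike, and up to 4 members of each of 25 lists with members called the other way. Members and lists were chosen with earlier results of these data known. Alternatives were no background correction, an offset of 16, median centring, loess within printing blocks, scaling between arrays, the authors' log2 values, no filter, all 6 arrays above background, saturated spots out, each array out, and a replicate block.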

Additional observations from a re-analysis of the deposited data

Results flagged for a closer look

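The effect against whole fish differed between S7 and S6 for 3 probes without a gene in the annotation, by the test of the difference itself. Probe 5462172 was lower in S7 by a log2 difference of -3.16 (limma adjusted p = 0.001654), with -4.64, -4.66 and -3.76 in S7 and -1.91, -1.12 and -0.57 in S6. Probe 5460397 differed by -3.13 (adjusted p = 0.002256), with -4.89, -3.80 and -4.11 in S7 and -0.36, -2.23 and -0.81 in S6. Probe 5463269 differed by -2.65 (limma adjusted p = 0.03229) and is 1 of the 12 lower recurring spots described above. It was the only one of the 12 to pass this test, but all 12 had lower means in S7 (-4.49 to -3.48) than in S6 (-2.09 to -1.36). The Cy5 signals of probes 5463269 and 5460397 were above background on 0 of 3 S7 arrays, which limits the size of these differences.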

How the results depend on the processing

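The exocrine pancreas list had 11 or 12 probes higher and 0 or 1 lower, and the skeletal muscle list 4 to 10 lower and 0 or 1 higher, under all 16 alternatives. Of 66 called probes named by the rule, 41 kept their call under every alternative run. Over both segments, 242 probes were lower without the filter on dim probes and 3251 on the authors' log2 values, which are not centred; there a vil1 probe stood at -0.868 (adjusted p = 0.0401) and not at 0.02. Calls named in the report that were lost with single arrays were also lost under other processing for ctsz, mcm3, both mafbb probes, col1a2, ptf1a, ambp, rps3, cfl1, aqp7, amy2a, lamp2, naprt and tnnt3b (adjusted p = 0.0504 to 0.654).

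Against whole fish, S6 had 15 probes higher at an offset of 16, and 52 higher after median centring. It had 3 higher and 0 lower with loess within printing blocks, 11 and 8 with scaling between arrays, 58 and 211 on the authors' values and 5 and 3 without the filter. It had 59 higher with all 6 arrays above background and 11 lower without background correction. S7 had 193 probes higher without background correction, 189 at an offset of 16, and 131 higher and 68 lower without the filter. It had 917 lower on the authors' values and 309 with all 6 arrays above background. S7 over S6 had 1 probe higher after median centring. Lower were 10 without background correction, 5 on the authors' values, 6 with all 6 arrays above background, and 0 with loess within printing blocks or without the filter. The cause was not tested.

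Leaving out 1 array at a time gave 203 to 1037 probes higher and 147 to 814 lower over both segments, 5 to 162 and 2 to 79 for S6, 47 to 470 and 49 to 305 for S7, and 0 to 1 and 0 to 4 for S7 over S6. The highest counts of the first 3 comparisons came without S6 replicate 2. With S6 replicates 3 and 5 and S7 replicates 3 and 5 sharing a number, the replicate block gave 665 probes higher and 484 lower over both segments and changed no call of a named probe. The deviations of arrays with the same number correlated at -0.0216 and 0.0264, so no pairing by number was seen. With so few pairs of weakly agreeing arrays, the check cannot exclude that pools of the same number shared fish. The mean r between arrays ran from 0.172 to 0.309, and that between probes of a gene from -0.00242 to 0.0331. Dim Cy5 signals limit the size of lower ratios.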
